A study of Mus musculus with 4 samples.

Results

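The genes described here are 5 of the 32285 in the deposited count tables and were chosen by symbol, for their part in making, storing or breaking down monoamine transmitters. Th encodes tyrosine hydroxylase, which makes L-DOPA, and Ddc encodes aromatic L-amino acid decarboxylase, which turns L-DOPA into dopamine and 5-hydroxytryptophan into serotonin. Slc18a2 encodes VMAT2, the transporter that loads monoamines into vesicles. Maoa and Maob encode the monoamine oxidases of the outer mitochondrial membrane. Nuclei came from the cortex of wild-type C57BL/6J mice aged PND 90 that had received saline or risperidone (4 mg/kg, i.p., daily from PND 22 for 21 days). Risperidone is an antipsychotic that blocks dopamine and serotonin receptors. For each condition, tissue of the right hemisphere from 5 females and 5 males was pooled and the nuclei were loaded on 2 lanes of a Chromium chip. Lanes repeat the measurement of a pool and not the treatment. With n = 1 per condition no test between conditions was possible, and preparation of the pools cannot be told apart from treatment.

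The dopamine, noradrenaline and serotonin neurons that send axons to the cortex have their cell bodies in the midbrain and hindbrain, and histamine neurons have theirs in the hypothalamus. Their own mRNA is therefore not sampled by cortical nuclei, whereas the cells that take up and break down the released transmitter are. MAO-A prefers serotonin and noradrenaline. MAO-B prefers phenylethylamine and is known as an enzyme of astrocytes. Ddc is also found in cells that make no monoamine transmitter, among them the endothelium of brain capillaries, where it degrades L-DOPA that enters from the blood.

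On GRCm38, GENCODE vM21 places Maoa at chrX:16619698-16687818 on the plus strand and Maob at chrX:16709282-16817366 on the minus strand, so the genes lie tail to tail, 21464 bases apart. Ddc lies at chr11:11814101-11898144 (minus strand), with the lncRNA 1700042O10Rik on the opposite strand within it. Th lies at chr7:142892752-142931128 (minus strand) and Slc18a2 at chr19:59260896-59296012 (plus strand), with the antisense RNA Gm29261 over its start. RefSeq promoters (GRCm38.p6, 250 bases before to 50 after the start) were found for 4 of the 5 genes. They were searched on both strands for a full cyclic AMP response element (TGACGTCA), a GC box, a TATA box and a CCAAT box, and no match overlapped another. The letters of the GC box were GGGCGG. For the TATA box they were those of TATAAA, and for the CCAAT box those of its name. Matches are in capitals below, printed 5′ to 3′ on the gene's strand, to show which letters the genes share at their starts. Positions are those of a match's first base, with the start at 0.
Slc18a2, chr19:59260628-59260927: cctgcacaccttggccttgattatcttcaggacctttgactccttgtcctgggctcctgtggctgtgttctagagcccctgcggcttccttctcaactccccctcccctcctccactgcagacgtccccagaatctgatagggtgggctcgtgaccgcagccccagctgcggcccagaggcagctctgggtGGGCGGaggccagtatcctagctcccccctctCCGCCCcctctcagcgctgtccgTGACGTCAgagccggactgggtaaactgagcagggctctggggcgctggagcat
Th, chr7:142899946-142900245: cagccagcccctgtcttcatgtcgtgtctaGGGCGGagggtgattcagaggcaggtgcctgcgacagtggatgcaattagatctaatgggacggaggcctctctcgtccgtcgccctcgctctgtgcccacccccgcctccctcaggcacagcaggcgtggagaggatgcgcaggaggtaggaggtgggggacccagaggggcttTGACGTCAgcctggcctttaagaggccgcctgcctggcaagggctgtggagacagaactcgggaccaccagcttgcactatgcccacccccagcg
Maoa, chrX:16619448-16619747: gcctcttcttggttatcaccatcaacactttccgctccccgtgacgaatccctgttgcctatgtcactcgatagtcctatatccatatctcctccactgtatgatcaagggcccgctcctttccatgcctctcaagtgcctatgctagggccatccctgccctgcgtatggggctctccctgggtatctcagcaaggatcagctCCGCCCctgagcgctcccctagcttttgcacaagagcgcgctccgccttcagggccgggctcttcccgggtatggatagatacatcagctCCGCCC
Ddc, first promoter, chr11:11898095-11898394: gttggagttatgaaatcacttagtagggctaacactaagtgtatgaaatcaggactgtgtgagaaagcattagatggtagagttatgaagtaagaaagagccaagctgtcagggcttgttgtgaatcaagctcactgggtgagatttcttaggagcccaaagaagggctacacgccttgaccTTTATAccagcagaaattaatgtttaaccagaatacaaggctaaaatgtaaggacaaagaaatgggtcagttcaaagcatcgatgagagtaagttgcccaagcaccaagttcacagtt
Ddc, second promoter, chr11:11890359-11890658: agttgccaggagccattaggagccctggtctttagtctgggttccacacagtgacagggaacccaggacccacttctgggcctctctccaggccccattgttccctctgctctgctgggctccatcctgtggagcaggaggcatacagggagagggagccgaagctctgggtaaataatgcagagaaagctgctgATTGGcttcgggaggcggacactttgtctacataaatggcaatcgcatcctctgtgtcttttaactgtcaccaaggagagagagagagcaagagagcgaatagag

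Slc18a2 and Th, which act in monoamine neurons, both hold TGACGTCA, at -4 and -45, a sequence present in 1.79% of the 32851 promoters of the table. Slc18a2 also holds a GC box at -59 and another at -27, Th holds 1 at -220, and Maoa, which many tissues express, holds 2, at -46 and 44, with no TATA box. A GC box was present in 35.7% of promoters. Of the 2 Ddc starts, the first had a GC content of 41.3% and a TATA box at -68 (13.6% of promoters), and the second had 54.3% and a CCAAT box at -55 (37.4%). The median GC content of all promoters was 52.7%. These are matches of letters and were not tested as binding sites.

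The lanes held between 119736937 and 203675013 unique molecular identifiers (UMIs), with a median per nucleus of 3297 and 4049 in saline and 5648 and 7765.5 in risperidone. The lowest total of a listed nucleus was 1364 and 1630 in saline and 500 in both risperidone lanes, so small nuclei are listed for risperidone alone. Of 108493 nuclei that passed the filters, 22815 carried markers of 2 classes and were removed, and between 160 and 221 barcodes were shared by any 2 lanes. The 85678 kept nuclei were classed by marker UMIs. A class name stands for nuclei with the markers of that type. Nuclei without a class made up 16.9% and 11.9% of those that passed the filters in the saline lanes, against 4.72% and 2.77% in the risperidone lanes. These were 4982, 3570, 1214 and 644 nuclei, next to 23429, 23094, 20684 and 18471 kept, so their share of kept nuclei was larger. Striatal spiny projection neurons were among the classes, with 995 and 927 nuclei in saline and 335 and 282 in risperidone, so the pools held striatal nuclei in unequal numbers. The 537 nuclei with microglial markers formed no cluster of their own and were left out of the 12 classes. Maoa met the rule for a call there as lower, with 15 against 15 UMIs and a log2 ratio of -0.79 (-1.92 to 0.35). Levels are UMIs per 1000000 (CPM), scaled between lanes by edgeR's TMM factors. Intervals are exact at 95% (Poisson for a level, conditional binomial for a ratio, Clopper-Pearson for a share) and cover counting error only. A gene was called different when it had at least 20 UMIs over the 4 lanes, an absolute log2 ratio of at least 0.5, and both risperidone lanes beyond both saline lanes.

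Over all kept nuclei, the vesicular transporter was higher in the risperidone pool, Maoa was slightly higher, and Maob, Ddc and Th were lower. Slc18a2 was at 0.882 and 0.821 CPM in the saline lanes (76 and 85 UMIs) and at 2.93 and 2.75 CPM in the risperidone lanes (375 and 420 UMIs), a ratio of 3.34 (interval, 2.81 to 3.98). Maoa was at 10.6 and 11.2 CPM in saline and 13.4 and 13.6 CPM in risperidone, a ratio of 1.24 (1.18 to 1.31). Both risperidone lanes lay above both saline lanes for these genes, although Maoa, at a log2 ratio of 0.31, stayed below the size required for a call.

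Maob was at 5.19 and 5.31 CPM in saline against 3.64 and 3.49 CPM in risperidone, a log2 ratio of -0.56 (-0.69 to -0.44). Ddc was at 1.79 and 1.86 CPM against 1.04 and 1.07 CPM, a log2 ratio of -0.80 (-1.02 to -0.57). All risperidone lanes lay below the saline lanes for both. Th had 9, 9, 5 and 8 UMIs in the 4 lanes, and although it met the rule at a log2 ratio of -1.04, its interval ran from -2.19 to 0.07. With doublet-like nuclei kept and over all listed nuclei, the log2 ratio of Th was -0.41 in each case, below the size required. The rule called 4 of the 5 genes, 1 higher and 3 lower, where it called 29.3% of the 22321 genes with enough UMIs, 17.1% as higher and 12.2% as lower. So many genes met the rule that a call by itself sets no gene apart. Without TMM factors the median log2 ratio of all genes moved from 0.00 to 0.11. Fewer nuclei of a type and less RNA per nucleus cannot be told apart in such sums.

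**Figure D1:**
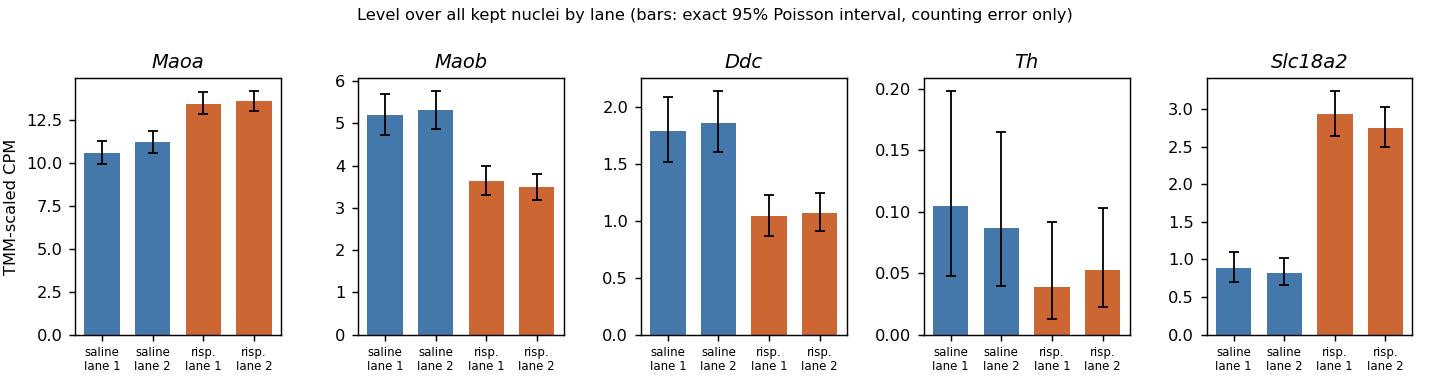
Level of each gene over all kept nuclei in the 4 lanes, in TMM-scaled CPM on axes that start at 0, with saline in blue and risperidone in orange and exact 95% Poisson intervals. The lanes of a pool lie close together, and Slc18a2 shows the largest ratio between pools of the 5 genes, at 0.882 and 0.821 CPM against 2.93 and 2.75 CPM.

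Divided by the length of the gene, since intronic reads count in nuclei, Maoa had the highest level of the 5, at 0.160 CPM per kb in saline and 0.199 in risperidone. Maob followed in saline at 0.0486 CPM per kb, ahead of Slc18a2 at 0.0242 and Ddc at 0.0218. In risperidone, Slc18a2 came second at 0.0806 CPM per kb, ahead of Maob at 0.0329 and Ddc at 0.0125. Th was last in both, at 0.00247 and 0.00121 CPM per kb. The annotated span of Th, 38.4 kb, reaches far upstream of the RefSeq start of the promoter printed above. Counted from that start, a choice made after the values were seen, its length was 7.24 kb and its level 0.0131 and 0.00639 CPM per kb, still the lowest.

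Maoa was detected in all 12 classes and was highest in endothelial cells, at 195 and 341 CPM in saline and 171 and 243 CPM in risperidone. Both pools overlapped there, and these values rest on 83 UMIs from 259 nuclei. Mural cells, astrocytes and fibroblast-like vascular cells came next, at 39.2, 32.7 and 28.6 CPM over the 4 lanes, with overlapping intervals. Astrocytes were at 32.6 and 30.3 CPM in saline and 35.5 and 33.2 CPM in risperidone. The other classes lay between 8.27 CPM, in PV interneurons, and 16.2 CPM, in Vip interneurons, and from second to eleventh place no class was separated from its neighbour in the order by interval or by lanes. Glutamatergic neurons, in eleventh place, and PV interneurons, the last, were separated, at 11.7 CPM (11.4 to 12.1) and 8.27 CPM (6.90 to 9.83). The order of the lower classes depends on RNA of other nuclei. The Maoa UMIs expected from it, by the estimate described with Maob, were 58.5% and 49.0% of those found in saline and risperidone oligodendrocytes, 57.9% and 38.0% in oligodendrocyte precursors and 39.7% and 31.6% in PV interneurons. In endothelial cells they came to at most 0.789%. The estimate there was 0 in both saline lanes, which held only 57238 and 53372 UMIs, so foreign RNA may be missed. After their subtraction from the gene alone, with class totals kept, the 4-lane level was 6.72 CPM in oligodendrocytes, 7.64 in oligodendrocyte precursors and 5.37 in PV interneurons, next to 8.31 in glutamatergic neurons, 27.5 in astrocytes and 229.8 in endothelial cells. The totals hold foreign RNA too. Markers of other classes stood at 70.6%, 72.9%, 55.6% and 56.5% of the lane level in the 4 lanes of oligodendrocytes. In glutamatergic neurons they stood at 30.8%, 30.3%, 24.7% and 25.1%. These subtracted levels therefore set no order of the classes.

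The pools differed most clearly for Maoa in glutamatergic neurons, which held 74.5% of its UMIs. There it was at 9.47 and 10.2 CPM in saline and 12.7 and 12.9 CPM in risperidone, a ratio of 1.30 (1.22 to 1.39). The risperidone lanes lay above the saline lanes, but the log2 ratio of 0.38 was under the size required. UMIs expected from other nuclei, by the estimate described with Maob, made up 34.8% of those in saline and 26.7% of those in risperidone. After their subtraction, with the class totals kept, the log2 ratio was 0.55. The totals hold foreign RNA too, and more of it in saline by that estimate. A subtraction from both was not run, so whether the size required is met cannot be told. The log2 ratio was at 0.30 in nuclei called female and 0.50 in nuclei called male. PV interneurons were at 7.59 and 8.49 CPM against 7.32 and 9.30 CPM, and their pools overlapped. Over 10 classes with enough UMIs, the log2 ratio was above 0 in 9 and ran from -0.30 in endothelial cells to 0.64 in oligodendrocyte precursors. The rule called 1 of them, the striatal spiny projection neurons, at 10.9 and 12.6 CPM against 12.7 and 22.5 CPM. Without risperidone lane 2, the log2 ratio was 0.10 instead of 0.60.

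Among glutamatergic nuclei with layer markers, Maoa was highest in layer 6 corticothalamic nuclei of the risperidone pool. They were at 9.60 and 12.1 CPM in saline and 15.8 and 17.6 CPM in risperidone, a ratio of 1.53 (1.29 to 1.82). The ratio was 1.64 (1.10 to 2.51) in layer 5 extratelencephalic nuclei, from 7 and 25 UMIs in saline and 53 and 65 in risperidone, or 4.49 and 9.73 CPM against 14.9 and 11.4 CPM. Upper-layer intratelencephalic nuclei were at 8.41 and 8.90 CPM against 9.53 and 12.1 CPM. Layer 4/5 intratelencephalic nuclei were at 8.24 and 7.64 CPM against 11.9 and 9.81 CPM. All these risperidone lanes were above the saline lanes. Claustrum-marked nuclei overlapped, at 14.7 and 12.6 CPM in saline and 13.3 and 10.2 CPM in risperidone. Layer 6b nuclei had too few UMIs for a ratio by the rule used here, 6 of Maoa in saline and 10 in risperidone (9.82 and 8.33 CPM), and 2 of Slc18a2 in each (3.27 and 1.67 CPM). Maob had 0, 8, 3 and 7 UMIs in the 4 lanes there, or 9.94 CPM (5.89 to 15.7). This was above the 2.04 CPM of glutamatergic neurons as a whole. Whether the ratio differs between layers was not tested.

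**Figure D2:**
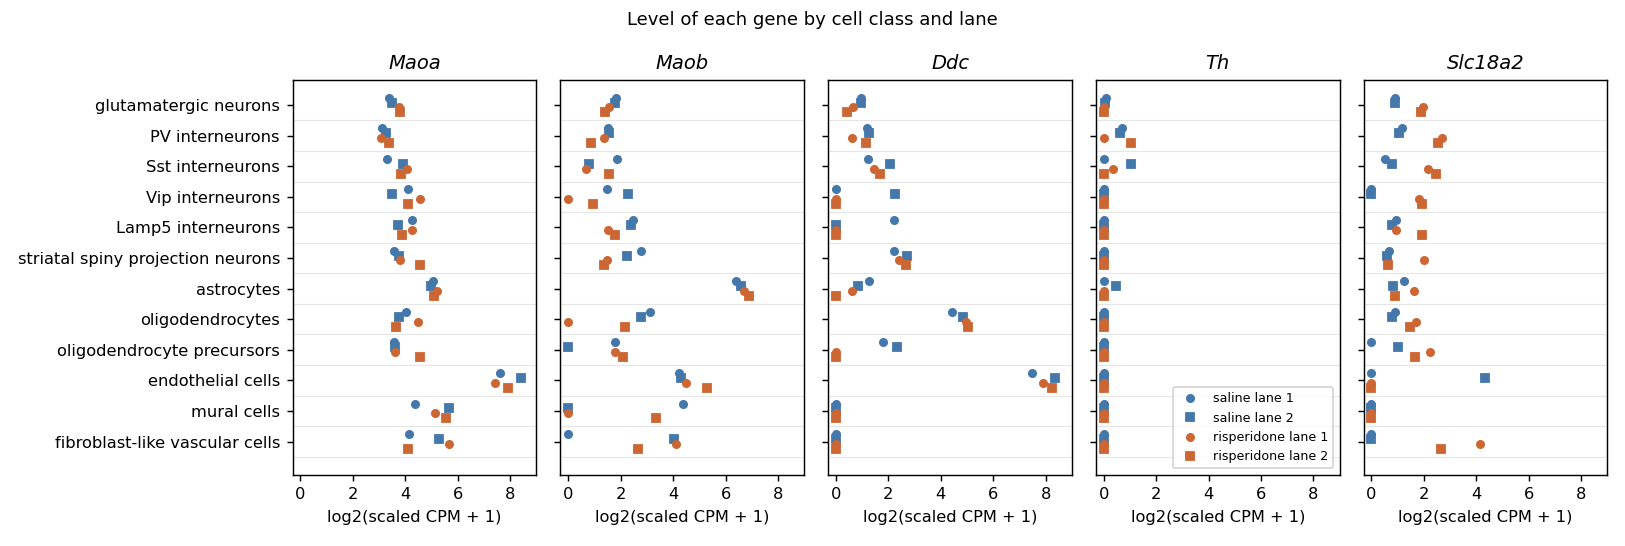
Level of the 5 genes in 12 cell classes as log2(scaled CPM + 1), with 1 point per lane, saline in blue and risperidone in orange. Maob stands highest in astrocytes, Maoa and Ddc stand highest in endothelial cells, Ddc has a second place in oligodendrocytes, and Th lies near 0 throughout.

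Maob had 1 main site. Astrocytes were at 84.1 and 95.6 CPM in saline and 102 and 116 CPM in risperidone, and the next class, endothelial cells, was separated from them at 27.8 CPM (13.3 to 51.2), from 10 UMIs. Astrocytes made up 1.92% of all UMIs and held 44.6% of those of Maob. Oligodendrocytes, at 4.58 CPM, striatal neurons, at 3.67 CPM, and glutamatergic neurons, at 2.04 CPM, were lower, and Sst interneurons were last at 1.40 CPM. In glutamatergic neurons, RNA of other nuclei accounts by the estimate used here for 74.2% of the Maob UMIs of saline and 64.8% of those of risperidone. That estimate is the median level of other classes' markers relative to the whole lane, 30.8% and 30.3% in the saline and 24.7% and 25.1% in the risperidone lanes for glutamatergic nuclei. It rests on markers that also set the classes.

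The direction of Maob differed between the tissue as a whole and its main cell class. In astrocytes both risperidone lanes lay above both saline lanes, with a ratio of 1.22 (1.06 to 1.39), which at a log2 of 0.28 is below the size required. Markers of other classes stood there at 46.1% and 47.4% of the lane level in saline and 42.3% and 35.2% in risperidone. The part of this foreign RNA in the ratio was not tested. In glutamatergic neurons Maob was at 2.55 and 2.48 CPM in saline and 1.94 and 1.65 CPM in risperidone, a log2 ratio of -0.49 (-0.70 to -0.28). Beside this stands the share of astrocyte UMIs in the lanes, 2.48% in the saline and 1.51% in the risperidone pool. With the same class weights in both pools, the log2 ratio of Maob over all nuclei was -0.14 instead of -0.56. It was -0.40 with doublet-like nuclei kept. Neither meets the size required. In glutamatergic neurons it was -0.05 after subtraction of the UMIs expected from other nuclei, with the class totals kept.

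The rule called Maob lower in 4 of 6 classes with enough UMIs, all of them classes with few. These were PV interneurons (13 against 10 UMIs), Lamp5 interneurons (11 against 10), striatal neurons (33 against 6) and oligodendrocytes (17 against 4). The intervals of the first 2 included a ratio of 1. The last 2 had most of their UMIs in saline, so the number of classes called lower is partly fixed by the filter. Among classes that did not pass it, both risperidone lanes were higher in oligodendrocyte precursors (2 against 5 UMIs) and endothelial cells (2 against 8). They were lower in Vip interneurons (4 against 1) and overlapped in Sst interneurons, mural and fibroblast-like vascular cells. The UMIs expected from other nuclei were 65.5% of those found in saline and 133% of those found in risperidone oligodendrocytes. They were 52.9% and 76.4% in the striatal class, 91.3% and 77.9% in PV interneurons and 38.1% and 41.0% in Lamp5 interneurons. After thinning to 2000 UMIs per nucleus, the log2 ratio of the striatal class was -0.03 instead of -1.45, a value from few UMIs of a random draw. Among thinned striatal nuclei, 8 of 779 and 4 of 861 in saline had a Maob UMI, against 2 of 320 and 0 of 275 in risperidone. The thinned ratio therefore does not show that the difference is lost at equal depth.

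The ratio of Maoa to Maob UMIs separated astrocytes from the neurons. It was 0.347 (0.286 to 0.419) in saline and 0.312 (0.257 to 0.377) in risperidone astrocytes, so the pools overlapped. In glutamatergic neurons it was 3.93 (3.48 to 4.44) in saline and 7.19 (6.49 to 7.98) in risperidone, and the intervals did not overlap. UMIs expected from other nuclei were 34.8% and 26.7% of these Maoa UMIs and 74.2% and 64.8% of these Maob UMIs, and were not removed from the ratio. In endothelial cells 83 Maoa UMIs stood against 10 of Maob.

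**Figure D3:**
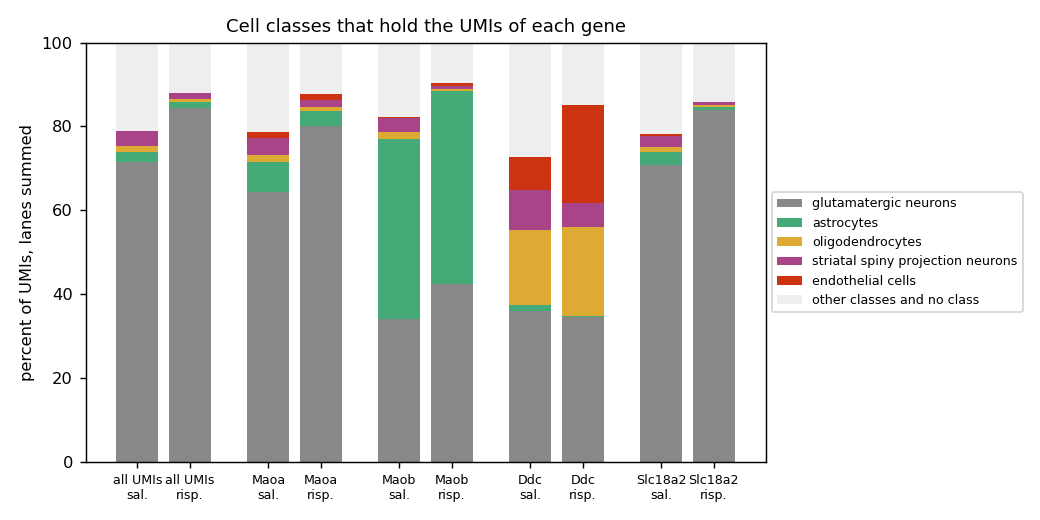
Percent of the UMIs of each gene, and of all UMIs, held by 5 cell classes in the saline and the risperidone pool, lanes summed. Astrocytes hold 43.0% and 46.2% of Maob but 2.48% and 1.51% of all UMIs, and endothelial cells hold 7.78% and 23.3% of Ddc.

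The level of Ddc per UMI was highest outside neurons, although glutamatergic neurons, with most of the nuclei, held 35.3% of its UMIs. Endothelial cells were at 177 and 322 CPM in saline and 235 and 300 CPM in risperidone, so both pools overlapped, with a ratio of 1.12 (0.706 to 1.81). These 259 nuclei held 0.0765% of all UMIs and 14.9% of those of Ddc. Their number was 31 and 24 in the saline and 90 and 114 in the risperidone lanes, with a median of 1699, 2155, 826.5 and 1125 UMIs. Nuclei as small as the smallest of the last 2 lanes are not listed for saline. No Ddc UMI was found in 237 mural and 321 fibroblast-like vascular nuclei, which allows up to 13.2 and 6.58 CPM.

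Oligodendrocytes came second for Ddc, at 20.4 and 27.8 CPM in saline and 29.95 and 31.5 CPM in risperidone. The risperidone lanes were above the saline lanes, with a log2 ratio of 0.34 (-0.19 to 0.87) that was not called. UMIs expected from other nuclei came to 7.62% and 3.19% of those found there. The class total holds more foreign RNA than this. Markers of other classes stood at 70.6% and 72.9% of the lane level in saline and 55.6% and 56.5% in risperidone. The part of this difference in the ratio of Ddc was not tested. Next were striatal spiny projection neurons, at 3.64 and 5.52 CPM against 4.24 and 5.35 CPM, and their pools overlapped. Each of the first 3 classes was separated from the next by interval and by lanes. The oligodendrocyte level was 15.4 CPM with Louvain clusters in place of marker classes.

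Glutamatergic neurons had 0.928 and 0.922 CPM of Ddc in saline and 0.553 and 0.329 CPM in risperidone, a log2 ratio of -1.11 (-1.50 to -0.72) that was called. The UMIs expected from other nuclei were 85.5% of those found in saline and 102% in risperidone, so the level of this class cannot be told from that of RNA from other cells. By Louvain clusters the log2 ratio was -2.03, and it was -0.74 without risperidone lane 2. Over all nuclei, Ddc had a log2 ratio of -0.47 with the same class weights in both pools, under the size required. Ddc was thus called lower in 1 and higher in none of 5 classes with enough UMIs.

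Th was nearly absent. It had 31 UMIs in 85678 nuclei, 9 of them in PV interneurons, 7 in glutamatergic neurons, 4 in Sst interneurons and 1 in an astrocyte. PV interneurons, where it was at 0.582 CPM (0.266 to 1.10), had 2, 2, 0 and 5 nuclei with a UMI in the 4 lanes, and no class had enough for a ratio. No nucleus had UMIs of both Th and Slc18a2, and 1 had UMIs of both Th and Ddc. Markers of monoamine neurons, those of histamine neurons included (Slc6a3, Slc6a4, Dbh, Tph2, Fev, Lmx1b, En1, Pitx3 and Hdc) summed to 2.08 and 2.26 unscaled CPM of all listed nuclei in saline and 1.82 and 1.72 CPM in risperidone. Most of these UMIs were of Lmx1b, with 143, 182, 134 and 155 in the 4 lanes, and of Tph2, with 70, 88, 129 and 138, and Tph2 was highest in astrocytes. Fev, a factor of serotonin neurons, had 0, 1, 1 and 3 UMIs in the 4 lanes, and En1, a midbrain factor, had 0, 0, 1 and 1.

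Slc18a2 differed between the pools in the 3 neuronal classes that had enough UMIs over both pools. PV and Sst interneurons, with 8 and 3 UMIs in saline, passed that filter only through the risperidone pool, with 44 and 28. The number of classes with a difference is thus partly fixed by the filter. Striatal neurons, with 4 against 6 UMIs, did not pass it, and their lanes overlapped. In glutamatergic neurons Slc18a2 was at 0.844 and 0.843 CPM in saline and 2.90 and 2.74 CPM in risperidone (50, 64, 309 and 358 UMIs), a ratio of 3.33 (2.73 to 4.10). In PV interneurons 4 and 4 UMIs stood against 21 and 23, that is 1.27 and 1.10 CPM against 5.49 and 4.75 CPM, a ratio of 4.32 (2.01 to 10.6). Sst interneurons had 1 and 2 UMIs against 12 and 16, a ratio of 6.74 (2.08 to 34.6). The pools did not overlap in any of the 3, and the rule called all of them. In Sst interneurons the log2 ratio of 2.75 became 1.32 in nuclei called female and 4.36 with Louvain clusters. UMIs expected from other nuclei made up 33.2% of the glutamatergic UMIs in saline and 25.3% in risperidone. After their subtraction, with the class totals kept, the log2 ratio was 1.90 instead of 1.74.

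Outside these classes Slc18a2 was sparse. Astrocytes had 3, 2, 4 and 2 UMIs in the 4 lanes and striatal neurons 2, 2, 5 and 1, and their pools overlapped. Endothelial cells had 1 against 0 UMIs per pool and mural cells had 0. Oligodendrocytes had 1, 1, 2 and 2, Vip interneurons 0, 0, 2 and 3 and Lamp5 interneurons 1, 1, 2 and 7. Oligodendrocyte precursors had 0, 1, 3 and 2, and fibroblast-like vascular cells 0 against 3 per pool. From oligodendrocytes on, the risperidone lanes lay above the saline lanes, with intervals that included a ratio of 1. Whether the ratio of neurons differs from that of glia was not tested. Its UMIs were spread thinly, with at most 2 in a nucleus in any lane. In glutamatergic nuclei thinned to 2000 UMIs, which left out 1216, 579, 66 and 40 shallower nuclei, the share with a UMI was 0.141% and 0.217% in saline and 0.619% and 0.560% in risperidone. Before thinning it was 0.377% and 0.438% against 2.07% and 2.60%. The median depth before thinning was 4100.5, 4829, 6246 and 8596 UMIs in these nuclei and 1798, 2223, 1119 and 1405 in oligodendrocytes. Thinned oligodendrocytes, which should lack the gene, gave 0 of 227, 340, 103 and 130 nuclei. This allows up to 1.61%, 1.08%, 3.52% and 2.80%, so a background of that size was not detectable at this depth.

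The difference was seen in glutamatergic nuclei of each layer group with enough UMIs over both pools. In saline alone every group had fewer than 20 UMIs. Near-projecting, layer 5 extratelencephalic and claustrum-marked nuclei, with 4, 3 and 4 in saline, passed only through the risperidone pool, with 51, 25 and 24. Their agreement is thus partly fixed by the filter. Layer 6b nuclei, with 2 UMIs in each pool, did not pass it. Upper-layer intratelencephalic nuclei were at 1.12 and 1.57 CPM in saline and 2.38 and 3.24 CPM in risperidone, layer 4/5 nuclei at 0.763 and 0.546 CPM against 2.92 and 2.32 CPM. Layer 6 corticothalamic nuclei were at 0.934 and 1.04 CPM against 3.29 and 3.08 CPM. Near-projecting nuclei had 0 and 4 UMIs against 22 and 29, or 0.335 against 2.90 CPM per pool. No risperidone lane overlapped a saline lane in these groups. The neighbouring gene Pdzd8, which ends 1166 bases beyond Slc18a2 on the opposite strand, had 3483, 4185, 5558 and 6762 UMIs and a log2 ratio of 0.12. Gm29261, antisense to the start, had 11, 20, 16 and 25 UMIs. Kcnk18, the neighbour before the start and on the same strand, 23522 bases away, had 19, 16, 36 and 39 UMIs and a log2 ratio of 0.53. These 3 genes were chosen after their values were seen.

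**Figure D4:**
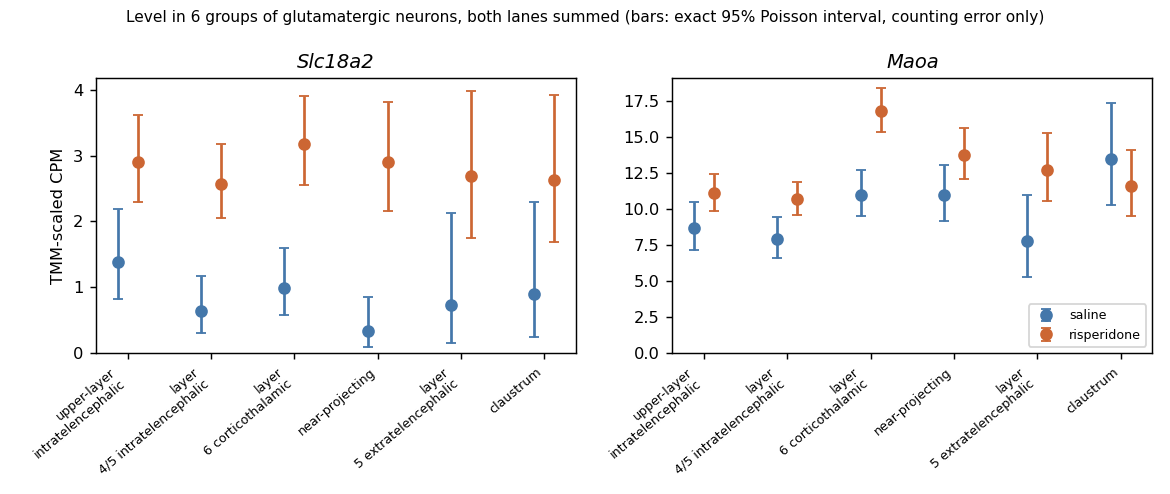
Slc18a2 and Maoa in 6 groups of glutamatergic neurons, in TMM-scaled CPM with both lanes of a pool summed and exact 95% Poisson intervals, saline in blue and risperidone in orange. Slc18a2 lies between 2.57 and 3.18 CPM in risperidone and between 0.335 and 1.39 CPM in saline, and Maoa is higher in risperidone in all groups shown but the claustrum, with layer 6b left out for its few UMIs.

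For reading the calls by class, the rule called 30.7% of all genes in glutamatergic neurons, 25.8% in PV interneurons, 23.8% in Sst interneurons, 20.9% in Vip interneurons and 23.9% in Lamp5 interneurons. It called 29.0% in striatal spiny projection neurons, 30.8% in astrocytes, 39.9% in oligodendrocytes, 26.7% in oligodendrocyte precursors and 35.4% in endothelial cells. Of 24 pairs of a gene and a class with enough UMIs it called 9, and 3 of these were of Slc18a2. In PV and Sst interneurons Slc18a2 had enough UMIs only through the risperidone pool.

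**Figure D5:**
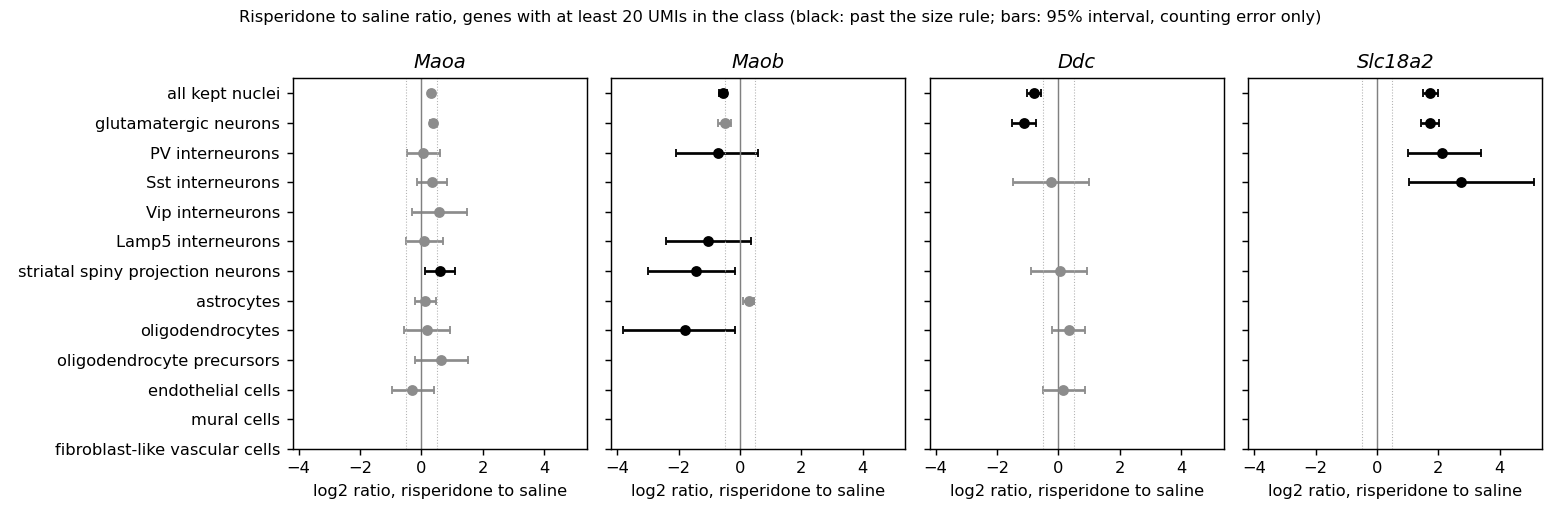
Log2 ratio of risperidone to saline by cell class for the 4 genes with enough UMIs, with 95% conditional binomial intervals. Black points are calls by the size rule, grey points are not, dotted lines mark 0.5 on either side, and classes with fewer than 20 UMIs have no point. Slc18a2 lies between 1.74 and 2.75 in its 3 classes. Of the classes with a point, Maob lies above 0 in astrocytes alone, and which classes have a point is partly fixed by the filter.

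Maoa and Maob lie on the X chromosome, and the share of nuclei called female by Xist was 37.7% and 39.1% in the saline and 49.8% and 48.8% in the risperidone lanes, while 17.9%, 18.3%, 18.7% and 19.5% were called male. The female to male log2 ratio of Maoa was 0.05 (-0.12 to 0.22) in saline and -0.09 (-0.21 to 0.03) in risperidone. That of Maob was -0.17 (-0.41 to 0.07) in saline and 0.37 (0.11 to 0.63) in risperidone, with 3.74 CPM in female and 2.90 CPM in male nuclei of the risperidone pool. Slc18a2, which is autosomal, was at -0.34 (-0.59 to -0.09) in risperidone, with 2.79 CPM in female and 3.53 CPM in male nuclei. When at least 2 Xist UMIs or UMIs of Y-linked genes were required, the values of Maoa were -0.09 in saline and -0.03 in risperidone, those of Maob -0.20 and 0.51. The risperidone to saline log2 ratio of Slc18a2 was 1.58 in female and 1.87 in male nuclei. For Maob it was -0.53 and -1.01. RNA of other nuclei can enter these calls, and its part in the values was not tested. Nuclei called female and male were not matched for depth or cell class, and the part of these was not tested either.

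A list of 26 other genes of the monoamine pathway had calls at about the share of all genes. Over all kept nuclei, 22 had enough UMIs, 2 were called higher and 4 lower, where 29.3% of all genes were called, and their median log2 ratio was -0.11, against 0.00 for all genes. Among 5 synthesis genes, 1 of 4 with enough UMIs was called, Hdc, the histamine-forming decarboxylase, as lower (10, 24, 7 and 14 UMIs, a log2 ratio of -1.26, named after its value was seen). Tph2, the neuronal tryptophan hydroxylase, had the most UMIs, 44 and 55 in saline and 84 and 92 in risperidone, a log2 ratio of 0.26 (-0.10 to 0.63) that was not called. Tetrahydrobiopterin is the cofactor of tyrosine and tryptophan hydroxylases. Of 5 genes that make or recycle it with enough UMIs, Pts, the second enzyme of its synthesis, was called higher, with 215 and 274 UMIs against 538 and 579, a ratio of 1.54. Qdpr, which recycles it, had the most UMIs and was highest in oligodendrocytes at 61.7 CPM, with 4.59 and 4.13 CPM against 3.93 and 3.86 CPM over all nuclei.

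Of 6 transporters with enough UMIs, 3 were called lower and none higher, the noradrenaline transporter Slc6a2 at -0.57 (9, 10, 10 and 9 UMIs, an interval of -1.56 to 0.43), Slc22a3 at -0.66 and Slc29a4 (the first 2 named after their values were seen). Of all genes over all kept nuclei, 12.2% were called lower and 17.1% higher. Slc29a4, the plasma membrane monoamine transporter, had both the most UMIs and the largest absolute log2 ratio, at 3.45 and 3.60 CPM against 2.11 and 2.00 CPM, a log2 ratio of -0.78 (-0.95 to -0.62). Among 7 breakdown genes, 1 was called higher and none lower. This was Akr1b3, an aldose reductase that reduces aldehydes formed by monoamine oxidase, at 3.37 and 3.40 CPM against 5.79 and 5.72 CPM, a ratio of 1.70. In glutamatergic neurons, 2 genes of the list were called higher and 4 lower of 21 with enough UMIs, where 30.7% of all genes were called.

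The genes whose pattern over the 12 classes was most like that of each gene were taken from 12393 candidates by Pearson correlation of log2(CPM + 1), a description over classes that share libraries and differ in depth. For Maoa they were Bmpr2, Nfkbia and Cd151 (r = 0.97 for each), all highest in endothelial cells. For Maob they were Mt2 (0.95), Cep85l (0.94) and Gna13 (0.94), all highest in astrocytes. For Ddc they were 1700042O10Rik (0.96), the lncRNA within Ddc, Tmcc3os (0.92) and Rnf125 (0.92), all highest in endothelial cells. The lncRNA had 4, 10, 19 and 21 UMIs in the 4 lanes. In endothelial cells it was at 19.6 CPM, Tmcc3os at 11.2 CPM and Cd151 at 19.6 CPM, from few UMIs in this small class. For Slc18a2 they were Golga2 (0.95), Ckap4 (0.93) and Usp50 (0.92), whose top class was the fibroblast-like vascular cells, where Slc18a2 itself had only 3 UMIs.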

How the data were processed

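Cortical nuclei of 1 saline and 1 risperidone pool were run on 2 Chromium lanes each. The authors aligned reads with Cell Ranger 8.0.1 to mm10 and deposited, for each lane, raw UMI counts by gene and nucleus. How reads from the 2 strands were assigned is not given in the sources used here. The 5 genes and all lists were chosen with earlier results of these data known.

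A minimum of 500 genes and a maximum of 5% of mitochondrial UMIs were required. Each nucleus was compared by a Poisson model with the marker levels of 13 classes and of their pairwise mixtures, and took a class at a posterior of 0.95. Nuclei closest to a mixture, which made up between 19.5% and 23.0% of a lane, were removed as doublet-like. The thresholds of this step were set after marker levels had been seen, and 7710 kept nuclei lay between even odds and the posterior required. Microglia-marked nuclei formed no cluster of their own and were not used, which left 12 classes. Louvain clusters named by the same markers were the alternative.

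UMIs were summed per class and lane and scaled by edgeR 4.0.16 TMM factors (R 4.3.3, with DESeq2 1.42.0 size factors as an alternative). Python 3.11.15 was used with pandas 2.3.3, scipy 1.17.1, numpy 2.4.6, igraph 0.11.9, matplotlib 3.10.9 and scikit-learn 1.9.0 (seed 1). The procedure was tested on simulated Poisson counts, summed over all nuclei, with known changes. These held no RNA of other nuclei, no cell classes and no variation between pools, so the test does not cover them. Named genes are the 5 members, of each role of the pathway list the gene with the most UMIs and that with the largest absolute log2 ratio among those with at least 100 UMIs, and per member with at least 200 UMIs the 3 genes most like it over the classes. Some items that the rule or a list names are not reported here. Other genes are said to be chosen after their values were seen. Alternatives were the scaling, the filters on nuclei, thinning to 2000 UMIs, the sexes apart, each lane left out, the classes, and subtraction of RNA from other nuclei. That subtraction reduced the UMIs of a gene and kept the class totals, so subtracted levels and ratios are corrected in part only.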

Additional observations from a re-analysis of the deposited data

Results flagged for a closer look

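Maob and Ddc had lanes on opposite sides in different cell classes. For Maob, both risperidone lanes lay above both saline lanes in astrocytes (log2 ratio 0.28) and below them in glutamatergic neurons (-0.49), PV interneurons (-0.73), Lamp5 interneurons (-1.03), striatal spiny projection neurons (-1.45) and oligodendrocytes (-1.77). For Ddc, they lay above in oligodendrocytes (0.34) and below in glutamatergic neurons (-1.11). The differences between classes were not tested. The intervals of Maob in PV and Lamp5 interneurons and of Ddc in oligodendrocytes included equal levels. The estimated level of RNA of other nuclei was lower in risperidone than in saline in each of these classes. Subtraction of the UMIs expected from it brought Maob in glutamatergic neurons close to equal levels and reversed its sign in PV interneurons. It left no value for Ddc in glutamatergic neurons. The class totals were kept, so the full part of that RNA was not tested.

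The female to male ratio had opposite signs in the lanes of the saline and the risperidone pool for 3 genes. The log2 ratio was 0.0461 in saline and -0.0874 in risperidone for Maoa, -0.17 and 0.37 for Maob, and -0.10 and 0.36 for Ddc. With at least 2 UMIs required for a call of sex, Maoa was at -0.0924 and -0.0274, so the signs no longer differed, and the saline lanes of Maob were split at -0.53 and 0.09. These differences were not tested either, and of the 6 intervals at 1 UMI only that of Maob in risperidone excluded 0.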

How the results depend on the processing

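Over all nuclei, the ratios of the 5 genes kept their sign under all 65 alternatives run. The log2 ratio of Maoa moved to 0.42 with plain CPM, 0.41 after thinning, 0.22 in female and 0.42 in male nuclei. That of Maob moved to -0.40 with doublet-like nuclei kept, -0.72 with at least 2000 UMIs, -1.01 in male nuclei, -0.40 over all listed nuclei and -0.14 with the same class weights. That of Ddc moved to -1.17 with at least 2000 UMIs, -1.29 after thinning, -1.24 in male nuclei, -0.55 over all listed nuclei and -0.47 with the same class weights. With plain CPM, Maob at -0.45 no longer met the size required, nor did Th at -0.41 with doublet-like nuclei kept or over all listed nuclei. The cause of these shifts was not tested. With each lane left out in turn, Maoa stayed between 0.27 and 0.35, Maob between -0.59 and -0.53, Ddc between -0.82 and -0.76, Th between -1.28 and -0.86 and Slc18a2 between 1.68 and 1.79. The 6530 genes called became 3771 with at least 200 UMIs and 2597 at a log2 ratio of at least 1, since fewer genes qualify.

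In the classes, 276 of 305 alternatives kept the sign and 29 did not. Of called values, Maob changed sign in PV interneurons, to 0.62, with expected RNA of other nuclei subtracted, and in Lamp5 interneurons, to 0.32, in female nuclei. Of 24 class levels, 15 moved outside their interval with that subtraction and 3 with Louvain clusters. Subtraction left no value for Ddc in glutamatergic neurons, and male nuclei none for Slc18a2 in Sst interneurons. No paired analysis was possible because the results come from no test and the lanes of a pool are technical runs. Few UMIs limit the results of Th everywhere and of Slc18a2 outside 3 neuronal classes. Whether depth or absence of the RNA lies behind this was not tested.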

Other observations

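Some other genes of the pathway list had their highest levels in vascular or glial classes, and are given here after their values were seen. Gch1, which encodes the first enzyme of tetrahydrobiopterin synthesis, was highest in endothelial cells at 134 CPM, next to 0.436 CPM in oligodendrocytes, so it stood beside Ddc and Maoa in that class. Aldh2, which oxidizes aldehydes, was highest there too, at 64.0 CPM. Aldh1a1, another aldehyde dehydrogenase, was highest in astrocytes at 194 CPM and in fibroblast-like vascular cells at 186 CPM. Slc22a2, an organic cation transporter, was at 55.3 CPM in fibroblast-like vascular cells and at 0.218 CPM in oligodendrocytes. Slc22a3, of the same family, was highest in striatal spiny projection neurons at 20.5 CPM and was called lower over all nuclei, with a log2 ratio of -0.66. The striatal class held 3.65% of saline and 1.28% of risperidone UMIs, and the part of this in the ratio was not tested.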
